A study of Mus musculus with 12 samples.

Results

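The genes followed here are 10 that carry fatty acids into the cell and turn them into acyl-CoA: the acyl-CoA synthetases *Acsl1*, *Acsl3*, *Acsl4* and *Acsl5*, the transport proteins *Slc27a2*, *Slc27a4* and *Slc27a5*, the surface receptor *Cd36*, and the binding proteins *Fabp1* and *Fabp4*. They were taken by symbol from a table of read counts with 55335 genes, and each symbol named 1 gene. The members were chosen by role in the pathway and with their measured counts and genotype differences in these libraries known. The values that bear on genotype are therefore given as a description, and the p-values beside them support no choice of gene.

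The counts come from 12 mouse libraries in 4 groups of n = 3. Bone-marrow-derived macrophages (BMDMs) of male littermates, 6 weeks old, were grown for 7 days with M-CSF at 10 ng/mL and then given TSH at 1 ng/mL for 24 h. Livers came from male mice put on a high-fat diet at 6 weeks of age for 9 weeks, fasted for 8 h and killed 5 min after insulin at 1.5 U/kg. In both tissues *Tshr* f/f mice, which carry floxed *Tshr* alleles and no Cre, were set against *Tshr* MKO mice (*Tshr* f/f, *Lyz2*-Cre), in which the *Lyz2* promoter drives Cre in myeloid cells. All BMDMs had TSH and all livers had the diet and insulin, so the comparisons are between genotypes under those treatments, and in liver the Cre acts on few of the cells. The methods of the study give 3 mice per group for the sequencing of each tissue, and the labels tie no library to a mouse.

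Libraries held 28962878 to 40954211 counts. The receptor gene itself could not serve as a check of the genotype, because *Tshr* had 0 counts in 10 libraries, 2 in BMDM f/f replicate 3 and 5 in BMDM MKO replicate 3. *Lyz2* was at 8768 to 9840 CPM (counts scaled to the size of the library with TMM factors of the tissue) in BMDM f/f libraries and at 14530 to 22300 in BMDM MKO libraries. A listing of liver receptor counts in the supplement of the study puts these libraries under the opposite genotype headings. Of 72 values compared, 72 equalled a count of a library labelled with the other genotype and 8 one of a library labelled with the same genotype. The labels are followed here, groups are written as livers labelled f/f or MKO, and every liver direction would turn around under the other headings. Hepatocyte markers summed to 74050 to 98780 CPM in livers and to at most 0.107 CPM in BMDMs, and 6 macrophage markers summed to at least 14310 CPM in each BMDM library. BMDM f/f replicate 3 stood apart, with a normalization factor of 0.738 against 0.993 to 1.11 in the other 5 BMDM libraries. *Lyz2* was at 1.56 CPM in liver MKO replicate 1 and at 27.7 to 106 CPM in the other 5 livers. The macrophage markers *Adgre1*, *Csf1r*, *Itgam*, *Cd68* and *Mrc1* of that library lay within the range of the other livers. For *Csf1r* it was at 79.3 CPM, against 45.4 to 132 CPM in the others. What the *Lyz2* values mean for the genotype labels was not tested in either tissue.

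Fatty acids reach a cell from albumin or from lipoproteins cut by lipases, cross the membrane with help from CD36 and the transport proteins, and are held in the cytosol by binding proteins. Acyl-CoA synthetases then join them to coenzyme A, which traps them in the cell and commits them to oxidation, to triglycerides and phospholipids, or to lipid mediators. *Acsl1* codes for a main synthetase of liver, fat and heart, and in macrophages it is known as a gene that inflammatory stimuli induce. *Fabp1*, *Slc27a2* and *Slc27a5* are known as genes of the hepatocyte, and *Cd36* and *Fabp4* as genes that macrophages and fat cells share.

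The RefSeq table of promoters (GRCm38.p6) held windows for 8 of the 10 genes, 9 windows in all because *Acsl1* has 2 annotated starts. *Fabp4* and *Slc27a5* are named only. The 250 bases before each start were searched on both strands for 4 motifs. The GC box, a site of Sp1-like factors, was searched as GGGCGG. The core of nuclear receptor sites, such as those of PPARs, was searched as AGGTCA. The TATA box was searched as TATAAA, and the element through which cAMP acts as TGACGTCA. The windows shown are those of the genes with the largest BMDM difference among those tested (*Acsl1*, both starts), the opposite BMDM direction (*Cd36*) and the largest tissue difference (*Fabp1*, cut short where an annotated exon begins). Each is written 5′ to 3′ along the strand of the gene, and capitals mark a match on either strand.
Acsl1, outer start, chr8:46470787-46471036, plus strand: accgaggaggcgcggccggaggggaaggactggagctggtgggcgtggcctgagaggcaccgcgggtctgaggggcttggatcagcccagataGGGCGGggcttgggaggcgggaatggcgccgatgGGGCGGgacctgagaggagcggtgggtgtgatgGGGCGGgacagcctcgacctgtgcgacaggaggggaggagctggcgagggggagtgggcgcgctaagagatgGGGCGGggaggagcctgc
Acsl1, inner start, chr8:46490716-46490965, plus strand: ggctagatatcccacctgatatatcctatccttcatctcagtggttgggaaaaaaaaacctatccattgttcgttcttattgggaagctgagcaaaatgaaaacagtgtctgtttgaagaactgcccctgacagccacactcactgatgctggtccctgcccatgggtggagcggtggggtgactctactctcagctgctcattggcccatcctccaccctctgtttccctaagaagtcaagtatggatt
Cd36, chr5:17835897-17836146, minus strand: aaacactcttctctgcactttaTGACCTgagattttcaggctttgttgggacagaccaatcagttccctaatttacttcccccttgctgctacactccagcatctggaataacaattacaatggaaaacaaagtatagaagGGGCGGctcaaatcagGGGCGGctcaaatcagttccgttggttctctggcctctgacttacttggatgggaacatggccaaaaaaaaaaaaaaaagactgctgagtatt
Fabp1, chr6:71199629-71199826, plus strand: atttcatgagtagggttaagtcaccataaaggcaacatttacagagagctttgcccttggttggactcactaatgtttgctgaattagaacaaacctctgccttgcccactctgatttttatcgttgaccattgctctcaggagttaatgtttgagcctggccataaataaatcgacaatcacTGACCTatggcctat

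The outer *Acsl1* window was 72% G or C and held GGGCGG at 4 places, from 157 to 18 bases before the start. The inner window, which lies inside the gene but in no annotated exon, was 48.4% G or C and held none of the 4 motifs. The windows of *Cd36*, *Acsl5* and *Slc27a2* also lie inside the annotated gene, past its outermost start. GGGCGG stood in 6 of the 9 windows, those of *Acsl1*, *Acsl3*, *Acsl4*, *Slc27a2*, *Slc27a4* and *Cd36*, against 32.7% of 32851 promoter windows of the same length. AGGTCA stood in the windows of *Slc27a2*, *Cd36* and *Fabp1* (14% of all windows), and TATAAA only in that of *Fabp1*, 30 bases before its RefSeq start and past the end of the stretch printed (12.4% of all windows). TGACGTCA stood in 0 of the 9 windows and in 1.55% of all.

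The BMDM comparison was of MKO against f/f macrophages that were all given TSH, and the counts could not show the loss of *Tshr*. *Acsl1* had the largest genotype difference of the 7 members that had enough counts to test. It was at 850, 631 and 1298 CPM in BMDM f/f libraries 1 to 3 and at 114, 110 and 173 CPM in BMDM MKO libraries. The groups did not overlap, and the highest MKO library was still far below the lowest f/f library. The log2 fold change of MKO against f/f was −2.81 (SE 0.35), a 6.99-fold lower mean, with an adjusted p of 0.218 in edgeR's quasi-likelihood test. It was the 7th of 15372 tested genes by p and the 203rd by size.

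With TMM scaling, all 4 acyl-CoA synthetases lay lower in every MKO library than in any f/f library. *Acsl4*, whose enzyme prefers arachidonic acid, was at 185, 195 and 408 CPM in f/f and 137, 132 and 162 CPM in MKO BMDMs, which gave a log2 value of −0.87 (SE 0.34). *Acsl5*, an enzyme of mitochondria and the endoplasmic reticulum, was at 202, 201 and 344 CPM in f/f and 142, 142 and 150 CPM in MKO, a log2 fold change of −0.79 (SE 0.25). In both genes f/f replicate 3 was well above the other f/f libraries, which themselves lay close to the MKO libraries. Without it the log2 fold changes were −0.40 for *Acsl4* and −0.48 for *Acsl5*, and that of *Acsl1* was −2.49. *Acsl3*, a synthetase of lipid droplets, was at 7.93 to 8.94 CPM in f/f and 5.61 to 7.06 CPM in MKO, with a log2 fold change of −0.45 (SE 0.18). Scaled by library size alone, the *Acsl3* groups overlapped and the log2 fold change was −0.28.

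The receptor and the binding protein of macrophages lay the other way. *Cd36*, which takes up long-chain fatty acids and oxidized lipoproteins, was at 634, 576 and 416 CPM in f/f and 1092, 1026 and 763 CPM in MKO BMDMs, which gave a log2 value of 0.83 (SE 0.25). *Fabp4*, which carries fatty acids in the cytosol of macrophages and adipocytes, was at 109, 30.4 and 69.3 CPM in f/f and 181, 175 and 126 CPM in MKO, a log2 fold change of 1.20 (SE 0.45). Every MKO library was above every f/f library for both genes, and the f/f libraries of *Fabp4* differed widely among themselves. Without f/f replicate 1 the *Fabp4* value was 1.72, and without f/f replicate 2 it was 0.85.

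Of the transport proteins, only *Slc27a4*, a broadly expressed one, had counts to test in BMDMs. It was at 31.6, 40.4 and 97.1 CPM in f/f and 29.98, 33.3 and 36.0 CPM in MKO, so the groups overlapped and f/f replicate 3 alone stood high. The log2 fold change was −0.77 (SE 0.42), and −0.12 without that library. *Slc27a2* had 0 to 5 counts per BMDM library, *Slc27a5* had 0 to 3 and *Fabp1* had 0, and the filter on low counts left these 3 genes out. A count of 3 in a BMDM library would be 0.0687 to 0.115 CPM, a limit that covers counting error only.

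**Figure D1:**
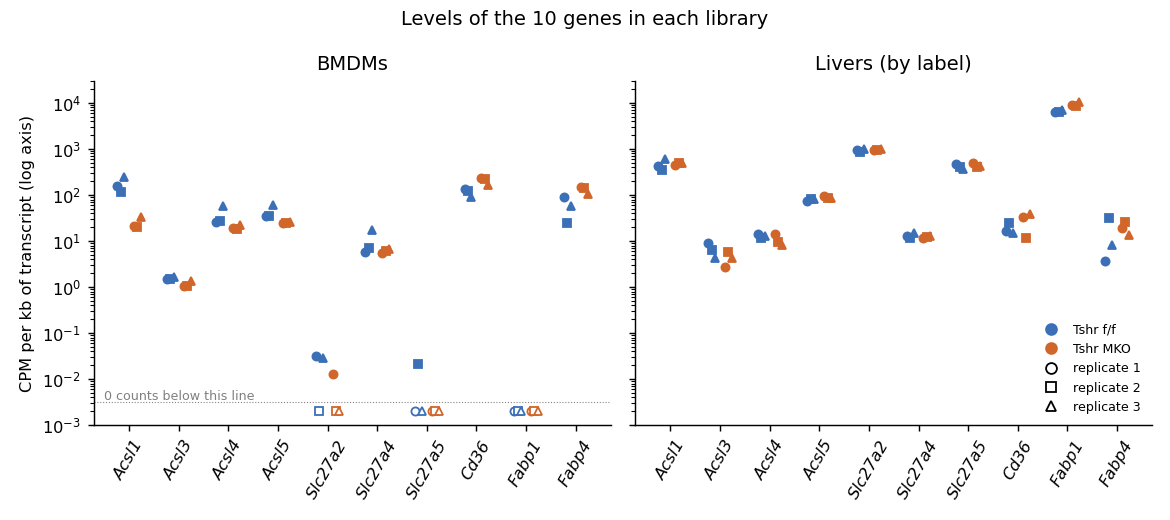
Level of each of the 10 genes in each library, in CPM per kb of transcript on a log axis, for BMDMs (left) and livers by label (right), with 1 point per library, colours for genotype and shapes for replicates. Open points at the bottom are libraries with 0 counts, which occur for Slc27a2, Slc27a5 and Fabp1 in BMDMs, and the Acsl1 points of MKO BMDMs (20.7 to 33.1) lie below those of f/f BMDMs (117 to 245).

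No member was called in BMDMs at an adjusted p under 0.05 in edgeR, where 0% of the 15372 genes were called. At an unadjusted p under 0.05 the count was 6 of the 7 tested genes, against 17.9% of all genes. Of these 6, 4 were lower, as were 10.2% of all genes, and 2 were higher, as were 7.73%. *Acsl1* and *Fabp4* also had a fold of at least 2, the second threshold of the study, as did 8.82% of all genes. The groups did not overlap for 6 of 7 genes, against 28.7% of all. DESeq2 called *Acsl1* (adjusted p = 2.06e-11) and *Cd36* (0.0184), and 7.96% of all genes. The fit of all 12 libraries called *Acsl1* (0.0127) and 0.87% of all genes. With 1 BMDM library left out, the adjusted p of *Acsl1* in edgeR ran from 0.0515 (without f/f replicate 2) to 0.587 (without MKO replicate 1). The MARS model sums the libraries of a group and has no replicate error, and it was run without the filter on low counts. It called the 7 genes and 52.5% of the 25179 genes with any BMDM count, and did not call *Slc27a2* or *Slc27a5*. The 7 genes had a median log2 fold change of −0.77, and the 15372 genes one of 0.01. These genes were chosen with such values known, so nothing is read from how the counts compare with the background.

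**Figure D2:**
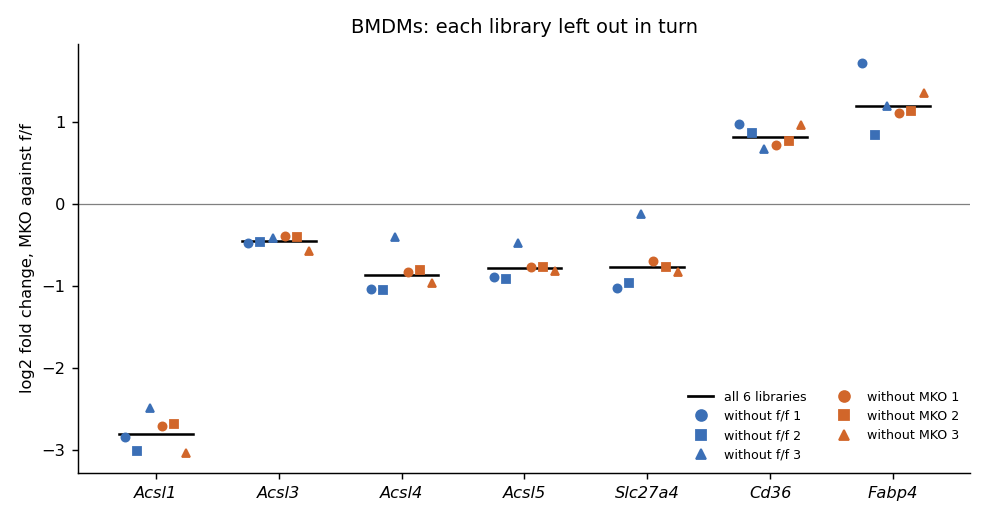
Log2 fold change of MKO against f/f BMDMs for the 7 tested genes, with all 6 libraries (black bar) and with each library left out in turn (points). Acsl1 stays between −3.04 and −2.49, and Acsl4, Acsl5 and Slc27a4 move towards 0 without f/f replicate 3.

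Genes of macrophage activation also lay apart by genotype. Of 12 listed genes that inflammatory stimuli raise in macrophages, such as *Il1b*, *Tnf* and *Nos2*, 11 were tested. The list was chosen with earlier results of these data known. All 11 genes were lower in MKO BMDMs at an unadjusted p under 0.05 in edgeR, as were 10.2% of all genes. They had a median log2 fold change of −5.32, and 0 had an adjusted p under 0.05 in edgeR. Their summed level was 5441, 3058 and 47880 CPM in f/f and 468, 448 and 972 CPM in MKO libraries, so the groups did not overlap and f/f replicate 3 was far above the rest. The f/f library with the highest sum also had the highest *Acsl1*, *Acsl3*, *Acsl4*, *Acsl5* and *Slc27a4* and the lowest *Cd36*. For *Acsl3* this held with TMM scaling and not by library size alone. *Fabp4* did not follow the sums. It was lowest in f/f replicate 2 (30.4 CPM), which had the lowest sum, and was at 69.3 CPM in f/f replicate 3. Macrophage markers summed to 14310 to 15990 CPM in f/f and 19870 to 29280 CPM in MKO libraries. Kupffer cell markers summed to 194, 223 and 443 CPM in f/f and 109, 61.6 and 42.1 CPM in MKO, mostly *Marco*, with *Clec4f* at 0 in the 6 libraries. Of 3 tested Kupffer genes 2 had an unadjusted p under 0.05 in edgeR, as did 17.9% of all genes. Neither the macrophage sum nor the Kupffer sum overlapped between the genotypes. *Lyz2*, whose promoter drives the Cre, made up most of the macrophage sum (8768 to 9840 CPM in f/f and 14530 to 22300 CPM in MKO). Of the 6 macrophage markers 4 were higher and 2 lower in MKO BMDMs, and *Csf1r*, *Itgam* and *Cd68* had overlapping groups. Summed neutrophil markers were at 7.25, 30.8 and 48.7 CPM in f/f and 4.34 to 9.46 CPM in MKO, mostly *S100a8*. *Camp* was also lower in every MKO library than in any f/f library. *Ngp* lay the other way, at or under 0.5218 CPM, and the *S100a9* groups overlapped. *Ly6g* was at or under 0.2258 CPM in the 6 BMDM libraries. Of the 3 tested neutrophil genes 2 were lower and 1 higher in MKO BMDMs. Adipocyte markers were at or under 0.0916 CPM in the 6 BMDM libraries. The part of activation or of these markers in the values of the 10 genes was not tested.

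The make-up of the synthetase transcripts could be compared without any scaling between libraries, as the share of each gene in the sum of the 4 *Acsl* genes per kilobase of transcript. *Acsl1* held 72.04%, 65.2% and 67.5% of that pool in BMDM f/f libraries and 32.6%, 32.0% and 39.6% in MKO libraries. The difference of the means was −33.5 percentage points (pooled SD 3.86), or −28.8 points with the union of all annotated exons as the length, a choice added after the data were seen. *Acsl5* took 15.7 to 19.1% in f/f and 31.5 to 38.0% in MKO, and *Acsl4* took 11.6 to 15.6% and 27.4 to 28.8%. The pool as a whole was 224, 180 and 364 CPM per kb in f/f and 66.3, 64.7 and 83.6 CPM per kb in MKO BMDMs, on the scale of all 12 libraries. *Acsl1* was thus the leading synthetase transcript in f/f BMDMs, while in MKO BMDMs *Acsl1* and *Acsl5* had shares whose ranges overlapped.

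**Figure D3:**
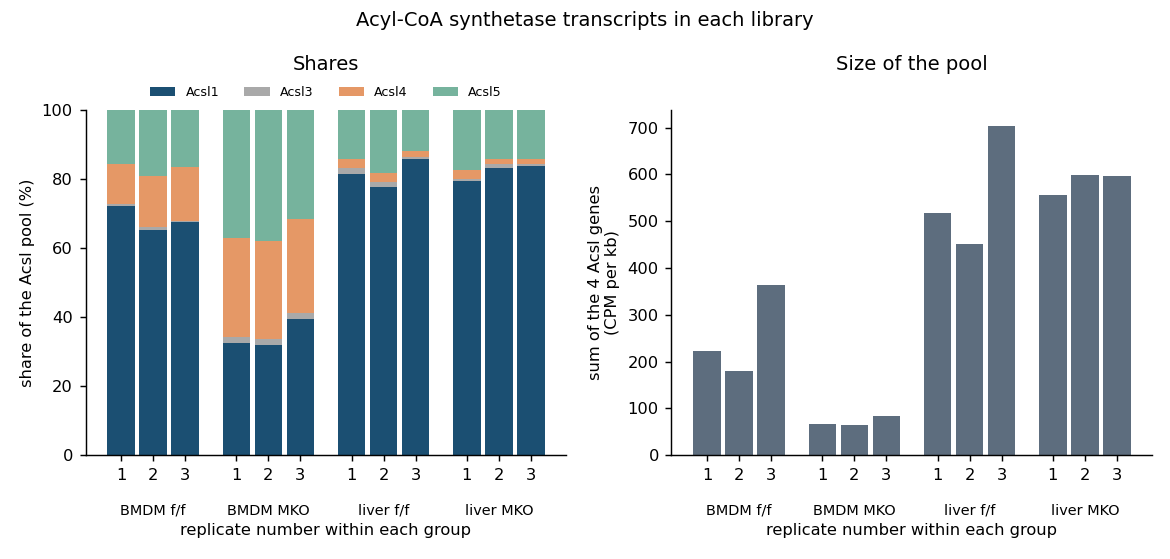
Left, the share of each of the 4 Acsl genes in their sum, in percent of CPM per kb, for each of the 12 libraries. Right, the sum itself in CPM per kb. The Acsl1 share is 65.2 to 72.04% in f/f BMDMs and 32.0 to 39.6% in MKO BMDMs, and 77.6 to 85.8% in the livers.

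In livers the pool did not follow genotype. *Acsl1* held 81.4%, 77.6% and 85.8% of it in livers labelled f/f and 79.5%, 83.2% and 83.7% in those labelled MKO, a difference of 0.56 points against a pooled SD of 3.33. Its level was 1228, 999 and 1728 CPM in livers labelled f/f and 1251, 1398 and 1465 CPM in those labelled MKO, with the MKO values inside the f/f range. The log2 fold change was 0.06 (SE 0.21, adjusted p = 0.958 in edgeR), and it turned to −0.11 without liver f/f replicate 2. In bulk liver, fewer cells of a type and less RNA per cell cannot be told apart.

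*Fabp1*, the main fatty acid carrier of the hepatocyte, was the member with the lowest p in liver. It was at 2664, 2648 and 2909 CPM in livers labelled f/f and 3606, 3447 and 4358 CPM in those labelled MKO, so the groups did not overlap. The log2 fold change was 0.47 (SE 0.14, unadjusted p = 0.0110, adjusted p = 0.349 in edgeR), and 0.37 to 0.53 with any liver left out. The 8 hepatocyte markers summed to 75110, 98780 and 74050 CPM in livers labelled f/f and 90760 to 93010 CPM in those labelled MKO. By gene, 3 of the 8 were lower and 5 higher in those labelled MKO. An unadjusted p under 0.05 in edgeR was found for 3 of the 8, and for 10.5% of all genes. The activation genes summed to 33.3 to 48.3 CPM in livers labelled f/f and 19.3 to 27.4 CPM in those labelled MKO, a sum in which *Socs3* was the gene that differed most in CPM (40.7, 16.4 and 38.0 CPM against 6.45, 8.92 and 20.8 CPM). By gene, 2 of the 5 tested were lower and 3 higher in those labelled MKO (median 1.08 on the log2 scale). The part of these markers in the *Fabp1* value was not tested. *Acsl5* was the other member whose liver groups did not overlap, at 231.5, 257.1 and 258.7 CPM against 298.5, 259.4 and 270.6 CPM, a log2 fold change of 0.15 (SE 0.11, adjusted p = 0.670). The highest library labelled f/f and the lowest labelled MKO were nearly equal, and by library size alone the *Acsl5* groups overlapped.

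*Cd36* and *Fabp4*, which in liver can also come from cells other than hepatocytes, varied widely within at least 1 group. *Cd36* was at 41.7, 63.1 and 37.6 CPM in livers labelled f/f and 81.3, 28.4 and 96.6 CPM in those labelled MKO, a log2 fold change of 0.53 (SE 0.45) with overlapping groups. *Fabp4* was at 2.47, 21.1 and 5.41 CPM and at 12.6, 16.6 and 9.27 CPM, a log2 fold change of 0.40 (SE 0.72) that was −0.05 without liver f/f replicate 1 and 1.70 without f/f replicate 2. The liver f/f replicate 1, lowest in *Fabp4*, also had the lowest summed macrophage (113 CPM), endothelial (45.6 CPM) and stellate cell markers (30.6 CPM) of the 6 livers, where the highest sums were 311, 157 and 288 CPM in f/f replicates 2 and 3. Adipocyte markers summed to 0.372, 7.03 and 0.299 CPM in livers labelled f/f and 1.84, 0.856 and 13.5 CPM in those labelled MKO, with *Lep* and *Retn* at 0 in all 6. For *Cd36*, the lowest liver, MKO replicate 2 (28.4 CPM), had summed macrophage markers of 294 CPM. The highest, MKO replicate 3 (96.6 CPM), had 132 CPM. The part of these cells in *Cd36* and *Fabp4* was not tested.

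The other 5 members had overlapping groups in liver. *Slc27a2*, a transporter with very long-chain acyl-CoA synthetase activity, was at 1865 to 2098 CPM in livers labelled f/f and 2018 to 2235 CPM in those labelled MKO, a log2 fold change of 0.07 (SE 0.12). *Slc27a5*, which also activates bile acids, was at 621 to 798 and 662 to 831 CPM, a log2 fold change of 0.09 (SE 0.15). *Slc27a4* was at 34.4 to 44.2 and 35.1 to 39.8 CPM (log2 fold change −0.09, SE 0.12), *Acsl4* at 46.1 to 55.9 and 32.1 to 55.4 CPM (−0.28, SE 0.21), and *Acsl3* at 12.4 to 27.4 and 7.98 to 16.5 CPM (−0.65, SE 0.36). The *Acsl3* value was the largest liver fold of the 10 members, with an adjusted p of 0.573 in edgeR.

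In edgeR, 0 of 10 members had an adjusted p under 0.05 in liver, and 0% of 15062 genes did. The count at an unadjusted p under 0.05 was 1, *Fabp1*, against 10.5% of all genes, and 0 members also had a fold of at least 2, against 1.55%. Groups did not overlap for 2 of 10 members and for 17.3% of all genes, and the median log2 fold change was 0.08 over the members and −0.01 over all genes. DESeq2 called *Fabp1* (adjusted p = 0.0298) and 1.79% of all genes. MARS called 9 of 10 members and 39.7% of the 23672 genes with any liver count.

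**Figure D4:**
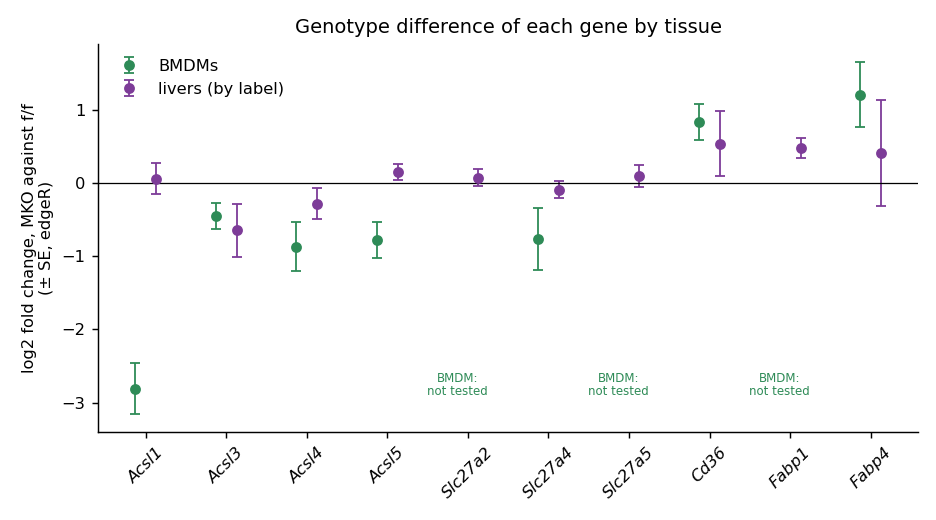
Log2 fold change of MKO against f/f with its SE from edgeR for each gene, in BMDMs and in livers by label (n = 3 per group). Slc27a2, Slc27a5 and Fabp1 were not tested in BMDMs. Acsl1 is at −2.81 in BMDMs and at 0.06 in livers.

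Whether the genotype difference was the same in both tissues was tested in a fit of all 12 libraries, as the BMDM difference minus that between livers by label. The value for *Acsl1* was −2.86 on the log2 scale (SE 0.43), the 9th lowest p of 17246 genes, with an adjusted p of 0.0886 in edgeR. The count of members past the threshold was 0, and 0.0058% of all genes (1 gene) were past it. DESeq2 gave *Acsl1* an adjusted p of 3.22e-07 and called no other member, with 4.49% of all genes called. In edgeR *Acsl1* passed without BMDM f/f replicate 1 (0.0437) and without BMDM f/f replicate 2 (0.0166), and its value lay between −3.11 and −2.53 with each library left out. At an unadjusted p under 0.05 there were 3 members, *Acsl1*, *Acsl5* (−0.94, SE 0.29) and *Slc27a5*, against 14.5% of all genes, and *Slc27a5* had at most 3 counts in a BMDM library. Under the other headings of the livers the liver term of this fit, 0.07, would change sign.

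Levels were ordered within each group in CPM per kb of the longest principal transcript, on the scale of all 12 libraries, because genes of different length can be compared only per length. In f/f BMDMs the order of the means was *Acsl1* (175 ± 65.1, SD, n = 3), *Cd36* (117 ± 24.3), *Fabp4* (57.1 ± 32.6), *Acsl5* (43.1 ± 14.5), *Acsl4* (36.5 ± 17.7), *Slc27a4* (10.2 ± 6.48) and *Acsl3* (1.56 ± 0.0962). The ranges overlapped between *Acsl1* and *Cd36*, and among *Fabp4*, *Acsl5* and *Acsl4*. In MKO BMDMs *Cd36* (209 ± 36.2) and *Fabp4* (132 ± 24.0) stood first, with no overlap, and *Acsl1* (25.1 ± 6.92) overlapped *Acsl5* (25.1 ± 1.01) and *Acsl4* (20.1 ± 2.43).

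In livers labelled f/f the order was *Fabp1* (6705 ± 389), *Slc27a2* (927 ± 53.1), *Acsl1* (458 ± 131), *Slc27a5* (412 ± 49.3), *Acsl5* (79.5 ± 5.69), *Cd36* (18.9 ± 5.58), *Fabp4* (14.7 ± 15.3), *Slc27a4* (13.1 ± 1.64), *Acsl4* (12.9 ± 1.14) and *Acsl3* (6.66 ± 2.50). *Acsl1* and *Slc27a5* overlapped, as did each neighbouring pair from *Cd36* down to *Acsl4*. The order of the means was the same in livers labelled MKO. *Fabp1* thus stood first in liver and had no count in the 6 BMDM libraries.

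Between tissues, 9 of 10 members differed within f/f at an adjusted p under 0.05 in edgeR, where 69.3% of 17246 genes did. Of these members 6 were lower and 3 higher in BMDMs, and of all genes 36.6% and 32.7%. Culture, TSH, diet, fasting and insulin differ with the tissue and cannot be told apart from it. *Fabp1* was at least 43700-fold higher in livers labelled f/f than 3 counts in a f/f BMDM library would be. *Slc27a2* was 50570-fold higher in liver (counting interval 25660 to 117100) on 8 BMDM counts, and *Slc27a5* 47010-fold higher (16080 to 227900) on 3. *Acsl3* was 4.26-fold lower in BMDMs (log2 −2.09, SE 0.31), *Acsl1* 2.62-fold (−1.39, SE 0.31) and *Acsl5* 1.85-fold (−0.88, SE 0.20).

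The members higher in BMDMs were *Cd36*, 6.18-fold (log2 2.63, SE 0.41), *Fabp4*, 3.88-fold (1.95, SE 0.69) and *Acsl4*, 2.82-fold (1.50, SE 0.31). The *Fabp4* call was lost without BMDM f/f replicate 1 (adjusted p = 0.0978), liver f/f replicate 1 (0.0590) or liver f/f replicate 3 (0.0902). *Slc27a4* did not pass (log2 −0.36, SE 0.33, adjusted p = 0.351), and it was −0.99 and passed without BMDM f/f replicate 3. Within MKO 10 of 10 members passed, as did 68.5% of all genes, and the *Acsl1* difference was −4.26 (SE 0.34), 19.1-fold lower in BMDMs. The *Acsl4* call within MKO was lost without BMDM MKO replicate 3 (adjusted p = 0.0648), liver MKO replicate 2 (0.0679) or liver MKO replicate 3 (0.0832). That of *Slc27a4* (−1.04, SE 0.34) was lost without BMDM MKO replicate 1 (0.0596) and by library size alone (−0.08, 0.792). Scaled by library size alone, all genes shifted towards BMDMs by a median of 0.82 within f/f, with *Slc27a4* turning to 0.34, *Acsl5* losing its call (−0.13) and *Acsl1* at −0.65. The direction of *Slc27a4* and the call of *Acsl5* thus depended on the scaling.

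The other genes of fatty acid uptake and activation were read from 6 lists, 75 genes in all, of which 51 were tested in BMDMs. At an unadjusted p under 0.05, 14 genes were higher (7.73% of all genes were) and 5 were lower (10.2% of all) in MKO BMDMs, and in edgeR 0 passed the adjusted threshold. Their median log2 fold change was 0.09, against −0.83 over the 4 *Acsl* members. Among 5 tested synthetases outside the *Acsl* members, *Acss1*, which activates acetate in mitochondria, was at 11.3, 10.95 and 9.78 CPM in MKO and 6.07, 4.85 and 4.07 CPM in f/f BMDMs (log2 1.09, SE 0.21). Among 3 transport proteins, *Slc27a1*, which serves muscle and fat, was at 120, 129 and 79.2 CPM in MKO and 69.7, 72.3 and 32.1 CPM in f/f (0.91, SE 0.35).

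Of 9 tested binding proteins 4 were higher at that p, *Fabp5*, *Fabp7*, *Dbi* and *Acbd5*, and 0 were lower. *Fabp5*, the epidermal type that macrophages also make, was at 1282, 1373 and 1539 CPM in MKO and 1030, 1021 and 595 CPM in f/f, a log2 difference of 0.67 (SE 0.27). Among 14 genes of fatty acid release and surface uptake, *Lpl*, the lipase that frees fatty acids from lipoproteins, was at 1074, 1204 and 643 CPM in MKO and 426, 78.5 and 154 CPM in f/f (log2 2.15, SE 0.64). *Scarb1*, the receptor for HDL, was also higher (0.75, SE 0.22), while *Zdhhc5* (−0.52, SE 0.21), an enzyme that palmitoylates CD36, and *Lipg* (−4.30, SE 1.61), an endothelial lipase, were lower. *Fabp7* and *Lipg* had overlapping groups and are named for their p alone.

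Of 10 thioesterases, which undo the work of the synthetases, *Acot1* (1.80, SE 0.54) and *Acot2* (1.15, SE 0.47) were higher at an unadjusted p under 0.05 and *Acot7* (−0.56, SE 0.21) was lower. Of 10 transcription regulators that sense or steer fatty acid use, *Cebpa* was at 248, 232 and 159 CPM in MKO and 66.3, 70.4 and 28.0 CPM in f/f BMDMs (1.96, SE 0.39), and *Rxra* at 204, 171 and 207 and 122, 116 and 90.2 CPM (0.83, SE 0.17). *Pparg* (2.71, SE 0.92), the receptor that drives *Cd36* and *Fabp4* in other settings, and *Rxrb* (0.56, SE 0.23) were higher too. *Cebpb*, a factor of activated macrophages, was at 30.5, 26.5 and 40.1 CPM in MKO and 54.4, 48.8 and 109 CPM in f/f (−1.12, SE 0.34), and *Nr1h2* was lower (−0.55, SE 0.22). *Pparg*, *Rxrb* and *Nr1h2* fall outside the naming rule and were singled out after their values were seen.

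In livers 61 of the 75 genes were tested, with 5 higher and 1 lower in those labelled MKO at an unadjusted p under 0.05 (5.27% and 5.18% of all genes), 0 at the adjusted threshold in edgeR and a median log2 fold change of 0.01. The 5 were *Acsf3*, *Slc27a3*, *Fabp2*, *Lipc* and *Acot13*. *Fabp2*, a carrier known from the intestine, was at 108, 95.8 and 113 CPM in livers labelled MKO and 68.1, 75.7 and 88.3 CPM in those labelled f/f (0.45, SE 0.12). *Acot13*, a thioesterase of mitochondria, was at 30.5, 24.5 and 32.8 CPM and at 21.7, 21.6 and 21.9 CPM (0.43, SE 0.12). *Ppargc1b*, a coactivator of mitochondrial genes, was the 1 lower gene, at 3.80, 3.21 and 2.12 CPM in livers labelled MKO and 4.06, 5.87 and 5.34 CPM in those labelled f/f (−0.74, SE 0.28).

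**Figure D5:**
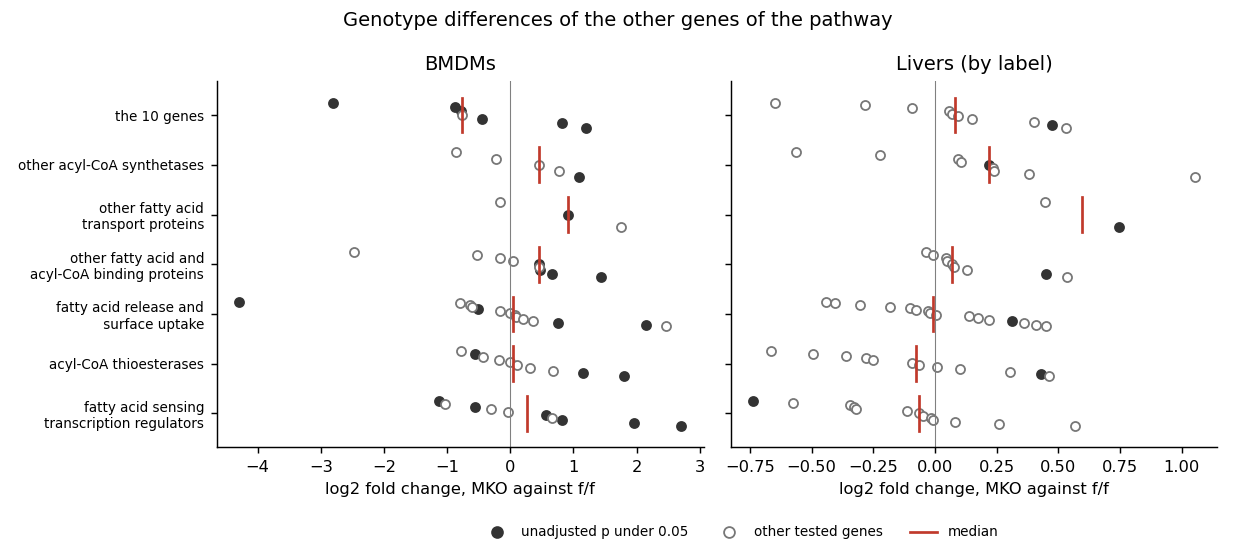
Log2 fold change of MKO against f/f for the 10 genes and for 6 lists of other genes of the pathway, in BMDMs (left) and livers by label (right, on a narrower axis). Each point is a tested gene, filled at an unadjusted p under 0.05, and red bars are list medians. None of the points passed the adjusted threshold.

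Genes whose levels followed *Acsl1* most closely were named by Pearson's r of log2 CPM over the 6 libraries of a tissue, as a measure of likeness with no test. The BMDM libraries fall into the genotype groups, so likeness there rests largely on sharing that difference. Among 12536 genes the closest were *H2-Q6* (r = 0.999), *Slc25a37* (0.996), *Fas* (0.996), *H2-Q5* (0.995) and *Mff* (0.995). *Slc25a37*, a mitochondrial iron importer, was at 392.2, 367 and 652 CPM in f/f and 99.0, 86.6 and 132 CPM in MKO, and *Fas*, a death receptor, at 35.2, 27.6 and 55.6 and 7.33, 7.78 and 11.9 CPM. The counts of *H2-Q6* and *H2-Q5* are uncertain, since near-identical genes of that family share reads. Of the other members *Acsl3* had r = 0.947, *Acsl5* 0.910, *Acsl4* 0.842 and *Slc27a4* 0.655, while *Cd36* had −0.945 and *Fabp4* −0.702.

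Over the 6 livers, where *Acsl1* did not separate the labels, the closest of 11983 genes were *Cspg5* (r = 0.993), *Cyp4a10* (0.993), *Asb3* (0.991), *Zfp511* (0.991) and *Nthl1* (0.979). *Cyp4a10*, a fatty acid hydroxylase, was at 1169, 703 and 2281 CPM in livers labelled f/f and 1090, 1498 and 1499 CPM in those labelled MKO. As for *Acsl1*, f/f replicate 2 was the lowest of the 6 livers and f/f replicate 3 the highest. Of the other members only *Slc27a4* (0.804) and *Slc27a2* (0.762) had r above 0.5, and *Acsl5* had 0.0864.

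Part of the counted sequence of 4 members is shared with a neighbour. *Acsl1* (ENSMUSG00000018796, chromosome 8, 46471037 to 46536051, plus strand, GRCm38) has 1039 exonic bases in common with the antisense gene *Gm45244*. *Acsl5* shares 404 bases with *Zdhhc6* and *Slc27a2* 419 bases with *Gm26697*, both on the opposite strand, and *Acsl3* shares 244 bases with *Utp14b* on the same strand. The libraries were strand-specific, and the strand setting of the count is not given in the sources used here, so reads of those stretches may belong to either gene.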

How the data were processed

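Gene expression was measured by mRNA sequencing in 12 libraries. Reads of strand-specific libraries (Illumina NovaSeq) were trimmed with Skewer and checked with FastQC v0.11.2 by the authors, whose processing notes also name STAR, StringTie and mm10. The authors deposited raw counts of reads per gene, and the study's own test was the MARS model. Genes were tested here with edgeR 4.0.16 in R 4.3.3 (quasi-likelihood, robust, TMM factors, filterByExpr), within a tissue or, between tissues, over 12 libraries, with Benjamini–Hochberg adjustment over all tested genes. The SE is the log2 fold change over the square root of F. DESeq2 1.42.0 and MARS were alternatives. The scripts were checked on simulated counts. CPM is scaled within a tissue and CPM per kb over all libraries, by the exon length of the longest principal GENCODE M21 transcript (GRCm38), which holds 55154 of the 55335 genes. Values of the 3-count floor and counting intervals (95%, Poisson) cover counting error only. Other values came from pandas 2.3.3, numpy 2.4.6 and scipy 1.17.1 under python 3.11.15, and plots from matplotlib 3.10.9.

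The members and all lists were chosen with earlier results of these data known. Named beside the 10 genes are, in each list, at most 3 genes with an unadjusted p under 0.05 and separate groups, by lowest p, the 5 genes most like *Acsl1* in each tissue (mean of at least 50 counts, prior count 2) and marker lists as sums. The list of activation genes holds *Irg1*, an older name of *Acod1* that is not a symbol of the table. Alternatives were RLE scaling, library sizes alone, no filter, all 12 libraries, a block for the replicate number, the A or B that begins the names of liver samples as a covariate, other lengths and genes for the *Acsl* share, and each library left out.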

Additional observations from a re-analysis of the deposited data

Results flagged for a closer look

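*Acsl5* was lower in every MKO BMDM library than in any f/f library (log2 fold change −0.79, SE 0.25) and higher in every liver labelled MKO than in any labelled f/f (0.15, SE 0.11), so with TMM scaling its groups were separate in opposite directions in the 2 tissues. In liver the separation was 258.7 CPM (f/f replicate 3) against 259.4 CPM (MKO replicate 2), and by library size alone the liver groups overlapped. The difference of those differences was −0.94 (SE 0.29, unadjusted p = 0.00776, adjusted p = 0.221 in edgeR over 17246 genes) and did not pass the threshold. The liver direction follows the labels and would turn around under the other headings, and the BMDM value was −0.48 without f/f replicate 3.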

How the results depend on the processing

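In BMDMs 0 members were called in edgeR with RLE factors, library sizes alone, no filter, the replicate block or any library left out, 1 in the fit of 12 libraries, 2 with DESeq2 and 7 with MARS. The members at an unadjusted p under 0.05 and a fold of at least 2 were 2, and 1 to 4 with a library left out. In livers 0 were called, 1 with DESeq2 and 9 with MARS, and 0 to 1 passed the second rule with a library left out. The interaction called 0 members, 1 with DESeq2 and 0 to 1 with a library left out. The difference in *Acsl1* share was −33.5 points and −28.8 with the exon union. Some values changed sign. With a liver left out, *Acsl1* in liver ranged from −0.11 to 0.29 (−0.00478 without f/f replicate 1) and *Fabp4* in liver from −0.048 to 1.70. The interaction of *Acsl3* ranged from −0.12 to 0.48 (−0.04 without liver MKO replicate 1), that of *Cd36* from −0.064 to 0.60 and that of *Fabp4* from −0.51 to 1.28. *Slc27a4* between tissues was 0.34 with library sizes alone. None of these was called, and the cause was not tested. Of the values of single genes under these settings, 700 kept direction and call, 24 gained a call, 9 lost one and 8 changed sign. Whether replicate numbers pair the samples is not given, and correlations over 3 libraries a group cannot decide it. Same-numbered libraries had deviations with r of 0.096, 0.013 and 0.102 in BMDMs and −0.056, 0.217 and −0.021 in livers. For libraries of different numbers r ran from −0.191 to 0.153 in BMDMs and from −0.291 to 0.281 in livers. With the replicate block *Acsl1* in BMDMs was −2.77 (adjusted p = 0.0829), 0 members were called in either tissue and 9 between tissues within f/f, and the tested genes called were 1 in BMDMs and 0 in livers. Depth limits only *Slc27a2*, *Slc27a5* and *Fabp1* in BMDMs.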
